A study of Homo sapiens with 4 samples.

Results

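Cells hold their internal pH by moving protons, lactate and bicarbonate across membranes, and 8 genes of that machinery are described here in Panc1, a long-established human line of pancreatic ductal carcinoma cells. They are the sodium-proton exchangers SLC9A2 and SLC9A8, the lactate transporters SLC16A1 and SLC16A3, the bicarbonate transporters SLC4A2 and SLC4A7, and the membrane-bound carbonic anhydrases CA9 and CA12. The 8 were found by exact symbol among the 54628 genes of each count table. SLC9A2 was picked because of its large change between the groups compared here, so its difference is given as a description with no test, and the other 7 were listed for their function.

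Poly(A) RNA was sequenced from 4 libraries. The labels give 2 libraries treated with siRNA (small interfering RNA) to HMGB2, a DNA-bending chromatin protein, and 2 treated with scramble siRNA as the control, each numbered 1 and 2. No time after transfection, siRNA sequence or statement that the replicates were separate cultures was found in the labels, so p-values speak only of the spread from library to library, possibly a technical one. Epithelial markers summed to 4530 to 4590 CPM (counts relative to library size, scaled by the TMM factors of edgeR) in the samples labelled HMGB2 siRNA and 3260 to 4180 CPM in those labelled scramble, and their part in the results was not tested. Of the 4 leukocyte markers, PTPRC and CD3E had at most 3 counts in every library, but with CD14 and CD68 the list summed to 105 to 111 CPM against 99.2 to 122 CPM. Of the 4 fibroblast markers, DCN and PDGFRA had at most 3 counts, but with COL1A1 and COL3A1 the list summed to 62.8 to 63.3 CPM against 56.4 to 77.9 CPM. The 4 markers of acinar and islet cells and the 3 endothelial markers had at most 3 counts in every library.

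HMGB2 went against the labels. Its counts were 4021 and 2746 in the samples labelled HMGB2 siRNA and 346 and 319 in those labelled scramble, and the name of every deposited table and its count column give the other treatment than the label of the sample. Groups are called here as the labels call them. Every "higher" below therefore means higher in the samples labelled HMGB2 siRNA, whose HMGB2 counts were the higher ones, and every "lower" means lower in them. Total counts were 20976561 to 31852391 in the samples labelled HMGB2 siRNA and 20340695 to 21874647 in those labelled scramble, and 3 counts, the limit below which a gene cannot be told from 0, correspond to 0.0954 to 0.146 CPM, counting error only.

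Glycolytic cancer cells make much lactate and acid. Monocarboxylate transporters carry lactate together with a proton, and the chaperone basigin brings them to the cell surface. Sodium-proton exchangers push protons out in exchange for sodium, SLC4 proteins carry bicarbonate in or out, and carbonic anhydrases interconvert carbon dioxide and bicarbonate next to them.

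Levels of the 8 members differed widely, from abundant transcripts to some at the limit of detection. RPKM (CPM per kilobase of exon) is the scale used to compare levels between genes. SLC16A3 was the most abundant at 133 ± 7.2 RPKM, and SLC4A2 followed at 98.9 ± 6.4 RPKM (SD over all 4 libraries). SLC16A1 at 18.0 ± 5.5 RPKM and SLC4A7 at 16.2 ± 2.4 RPKM came next and overlapped in their ranges, so this pair cannot be ordered beyond the spread between libraries. SLC9A8 at 1.75 ± 0.29 RPKM and SLC9A2 at 0.912 ± 0.73 RPKM also overlapped. CA12 at 0.161 ± 0.057 RPKM and CA9 at 0.0313 ± 0.016 RPKM were last, each with a range below that of the gene before it. The lactate exporter associated with glycolytic cells, SLC16A3, stood in the 97.2nd percentile of RPKM among tested genes and CA12 in the 4.35th. The order was the same when libraries were scaled by their total counts.

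**Figure D1:**
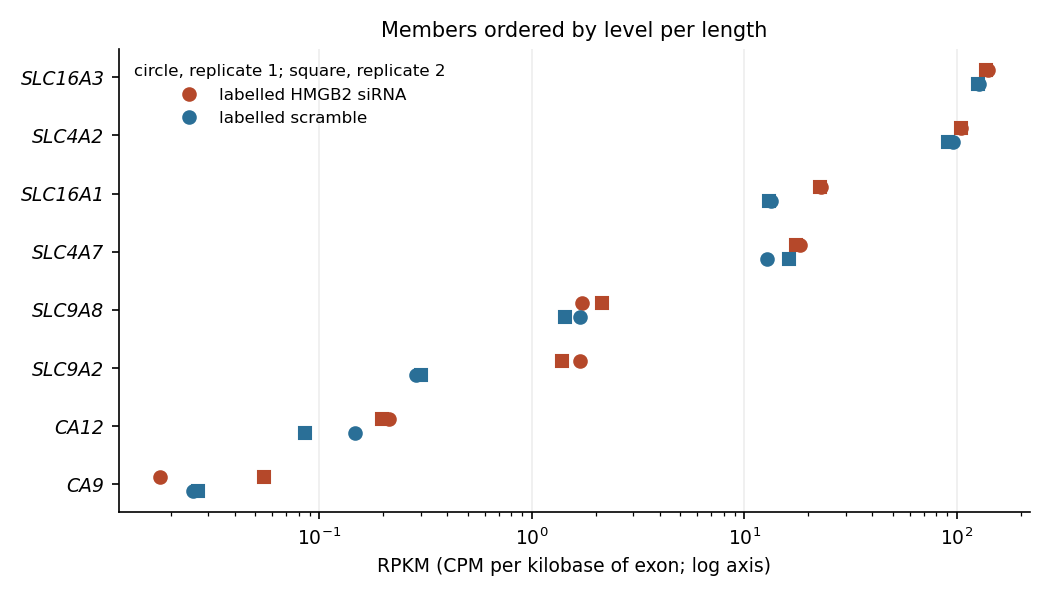
RPKM (CPM per kilobase of exon, log axis) of the 8 members in each library, ordered by the mean over 4 libraries, with circles for replicate 1 and squares for replicate 2. SLC16A3 and SLC4A2 lie near 100 RPKM, CA9 lies below 0.1 RPKM, and the gap between labels is widest for SLC9A2.

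SLC9A2 is a sodium-proton exchanger of the plasma membrane, best known from stomach and gut epithelium, and lies on GRCh38 chromosome 2 from 102619553 to 102711355 on the plus strand. It had 296 and 159 counts in the samples labelled HMGB2 siRNA (HMGB2 counts 4021 and 2746) and 35 counts in each library labelled scramble (HMGB2 counts 346 and 319). These were 9.42 and 7.75 CPM against 1.59 and 1.68 CPM. Both libraries labelled HMGB2 siRNA were far above both labelled scramble. The groups did not overlap, as in the 32.0% of all tested genes with both libraries labelled HMGB2 siRNA above both labelled scramble. In bulk RNA, more cells with the transcript and more transcript per cell cannot be told apart. The means were 8.58 ± 1.2 and 1.63 ± 0.06 CPM (SD, n = 2 each), a log2 difference of 2.40 that stood between 2.24 and 2.53 when any 1 library was left out. By log2 fold change it ranked 8 of the 15161 genes tested. As it was picked for this change, its rank, the gap between its groups and its range with 1 library left out restate the pick. The same holds for the change in its ratio to SLC9A8 given below. Even at its higher level the gene was at 1.53 ± 0.21 RPKM (SD, n = 2), below SLC9A8 at 1.93 ± 0.30 RPKM in the same libraries. SLC9A8 exceeded SLC9A2 by 5.96 and 4.81 times per length in the libraries labelled scramble and by 1.02 and 1.55 times in those labelled HMGB2 siRNA. With 2 libraries against 2, an exact two-sided permutation test cannot give a p below 0.333.

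The 3′ untranslated region (3′UTR) of SLC9A2 is shown where it holds any of 3 short words, which are GACAAAG and, sharing most of their letters, ATAGTAA and AATAGTA. Small RNAs find their target transcripts by pairing with such words in the 3′UTR. The 3 words were picked in an earlier pass over these same libraries because transcripts carrying them were higher in those labelled HMGB2 siRNA, so their presence in a gene that is higher is no independent support, and their part in the results was not tested. Of 12164 tested genes with a matched 3′UTR, 26.0% carried at least 1 of them. The longest annotated 3′UTR of SLC9A2 (GENCODE 29, 2829 bases) carried 3, of which 2 are given here 5′ to 3′ on the plus strand of GRCh38 with the word in capitals (the latter pair of words can overlap):
SLC9A2 chr2:102709643-102709672: cattcgataatATAGTAActcagaattttc
SLC9A2 chr2:102710620-102710649: gtttgttgaatGACAAAGgcaataaaaata

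The other exchanger, SLC9A8 (chromosome 20, 49812828 to 49892242, plus strand), works in membranes of the Golgi apparatus and endosomes. It had 13.0 and 16.3 CPM in the samples labelled HMGB2 siRNA (HMGB2 high) and 12.9 and 10.9 CPM in those labelled scramble. The lowest of the former and the highest of the latter almost met, and they crossed with upper-quartile or total-count scaling. Its log2 fold change of 0.29 ± 0.13 (SE) did not pass the quasi-likelihood test of edgeR (Benjamini-Hochberg adjusted p = 0.0798, over all 15161 genes tested). Without replicate 1 labelled HMGB2 siRNA (log2 fold change 0.45) or without scramble replicate 1 (0.41) it was called higher. Without replicate 2 labelled HMGB2 siRNA (0.14) or without scramble replicate 2 (0.17) it was not. DESeq2 did not call it either (adjusted p = 0.294). None of the 3 words was found in its 3′UTR of 4306 bases, the second longest among the members.

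SLC16A1, which encodes the lactate transporter MCT1, was the clearest difference among the members that were not picked for theirs. It had 3252 and 2104 counts in the samples labelled HMGB2 siRNA (HMGB2 counts 4021 and 2746) and 1322 and 1234 counts in those labelled scramble (HMGB2 counts 346 and 319). In CPM these were 103.45 and 102.53 against 60.05 and 59.2. Libraries of the same label were nearly equal, and the groups lay far apart. SLC16A1 was 1.73-fold higher, a log2 fold change of 0.79 ± 0.07 (SE; edgeR adjusted p = 3.83e-13), and it was called under all 12 alternative settings, with log2 fold changes from 0.74 to 0.81. The gene (chromosome 1, 112911847 to 112956196, minus strand) also has its exons on a fix sequence of the assembly, where reads could be left uncounted or counted again, so its level per length, computed from the 4512 exon bases on chromosome 1, is less certain than its fold. Its 3′UTR of 2044 bases carried 1 of the words, shown 5′ to 3′ on the minus strand:
SLC16A1 chr1:112913778-112913807: tgctcaatgcaAATAGTAgacatttgtgtg

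SLC16A3 encodes MCT4, the transporter that exports lactate from strongly glycolytic cells. It had 457 and 444 CPM in the samples labelled HMGB2 siRNA (HMGB2 high) and 414 and 408 CPM in those labelled scramble. The groups did not overlap, but the gap was small beside the level. Its log2 fold change of 0.13 ± 0.06 (SE) missed the threshold (edgeR adjusted p = 0.117). Leaving out scramble replicate 1 brought it past (0.15), but leaving out any other library did not (0.11 to 0.16). Nor did edgeR with upper-quartile or total-count scaling (adjusted p = 0.354 and 0.298). MCT4 transcript exceeded MCT1 transcript per length in every library, by 6.14 and 6.03 times in those labelled HMGB2 siRNA and by 9.60 and 9.59 times in those labelled scramble. These ratios agreed within each label and did not overlap between labels (exact two-sided permutation p = 0.333, the smallest possible). SLC16A3 (chromosome 17, 82217951 to 82240086, plus strand) shares 1044 exon bases with CSNK1D on the opposite strand, whose reads may be mixed with its own, as the use of strand in counting is not known. Its 3′UTR of 1110 bases carried none of the words.

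**Figure D2:**
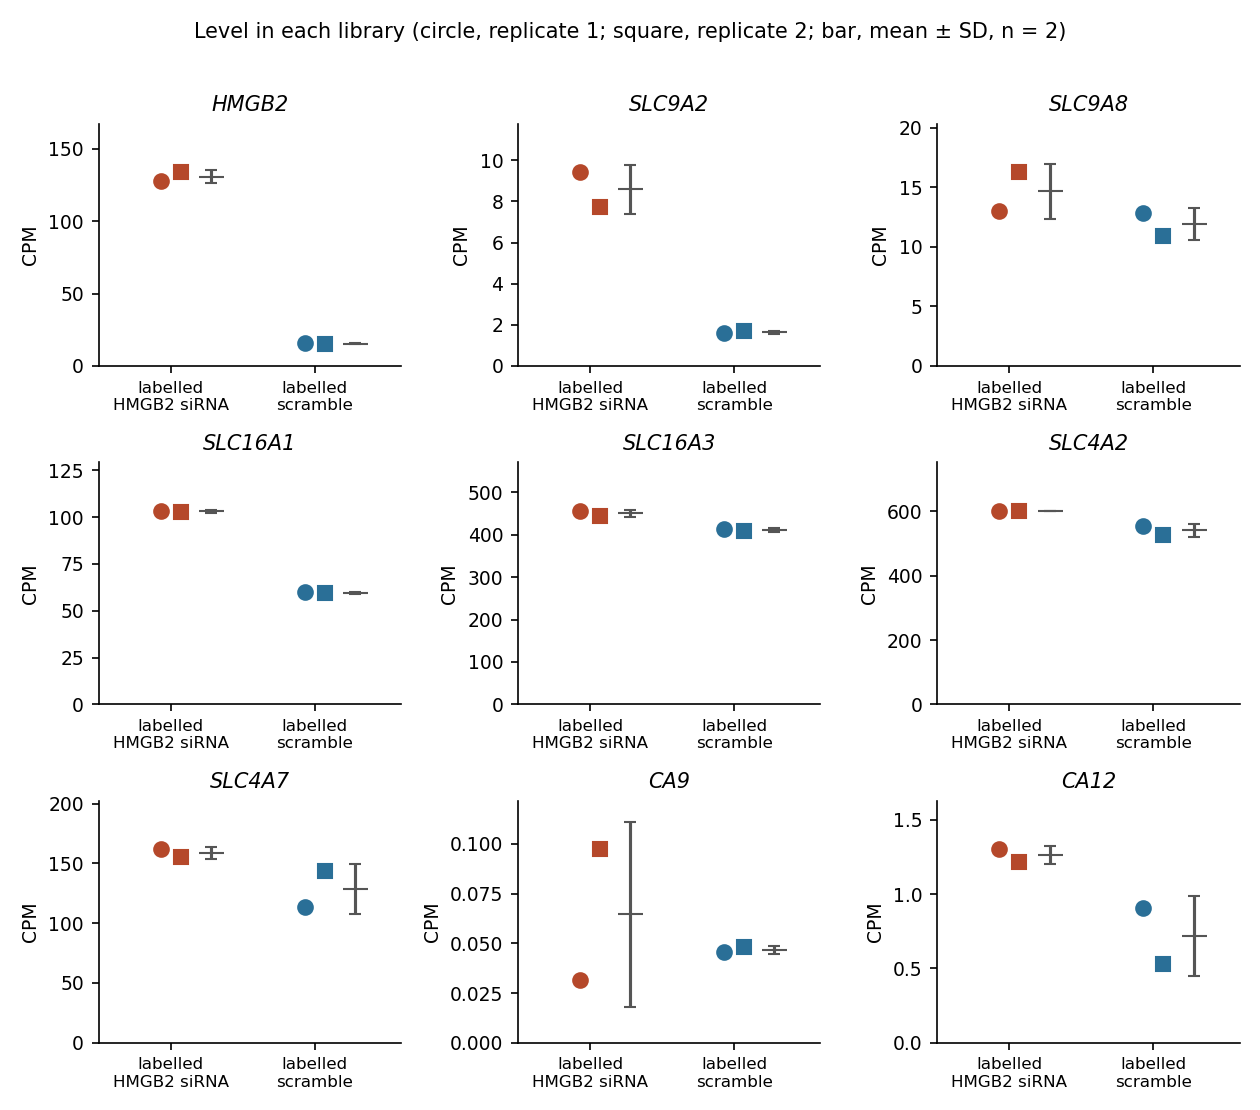
CPM of HMGB2 and of the 8 members in each library (y axes start at 0 and differ between panels), with circles for replicate 1, squares for replicate 2 and bars for mean ± SD of 2 libraries. HMGB2, SLC9A2 and SLC16A1 are far apart between the labels, SLC16A3 and SLC4A2 lie close together, and CA9 rests on 1 or 2 counts in each library.

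SLC4A2, or AE2, exchanges chloride for bicarbonate and so lets base leave the cell. It had 601 and 602 CPM in the samples labelled HMGB2 siRNA (HMGB2 high) and 555 and 526 CPM in those labelled scramble. The groups did not overlap, and the log2 fold change was 0.15 ± 0.06 (SE; edgeR adjusted p = 0.0625). For this gene (chromosome 7, 151058200 to 151076527, plus strand) the call depended on the setting. DESeq2 (adjusted p = 0.028), limma-voom (adjusted p = 0.0431) and the edgeR fit with no filter on low counts (adjusted p = 0.0259) called it higher. The edgeR fits with upper-quartile scaling (adjusted p = 0.22), total-count scaling (adjusted p = 0.169) or the replicate number as a block (adjusted p = 0.105) did not. The fit without scramble replicate 1 called it higher (log2 fold change 0.20). Those without any other library did not (0.12 to 0.16).

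SLC4A7, or NBCn1, brings sodium and bicarbonate into the cell. It was called higher in the samples labelled HMGB2 siRNA, with 5091 and 3186 counts (HMGB2 counts 4021 and 2746) against 2503 and 2983 counts in those labelled scramble (HMGB2 counts 346 and 319). In CPM these were 162 and 155 against 114 and 143. Both libraries labelled HMGB2 siRNA stood above both labelled scramble, and the latter differed from each other by more than the former. The log2 fold change was 0.31 ± 0.07 (SE; edgeR adjusted p = 0.000945). Scramble replicate 1 carried much of it. Without that library the log2 fold change was 0.16 (adjusted p = 0.0425), without scramble replicate 2 it was 0.48 (adjusted p = 2.45e-12), and without replicate 1 labelled HMGB2 siRNA the call was lost (0.28, adjusted p = 0.0517). SLC4A7 lies on chromosome 3 from 27372721 to 27484420 on the minus strand, and its longest 3′UTR (4043 bases) carried 1 of the words, shown 5′ to 3′ on the minus strand, while the 3′UTR of SLC4A2 (160 bases) carried none:
SLC4A7 chr3:27374668-27374697: tttaattgtgtATAGTAAttatccagtgcc

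The 2 carbonic anhydrases were barely present. CA9, a well-known target of hypoxia-inducible factors, had 1 and 2 counts in the samples labelled HMGB2 siRNA and 1 count in each library labelled scramble. All of these are at or under the limit of 3 counts, no fold is given, and the gene did not enter the test. A single count in scramble replicate 1 was 0.0454 CPM with an exact 95% Poisson interval of 0.00115 to 0.253 CPM, and the highest upper bound among the 4 libraries was 0.352 CPM. In the count table CA9 spans chromosome 9 from 35673809 to 35681159 on the plus strand, while RefSeq places its start at 35673928. Its promoter is shown for the hypoxia-response core, the letters ACGTG, searched on both strands. RefSeq's promoter window of CA9 (GRCh38.p14, 250 bases before to 50 after the start) holds it once, 18 bases before RefSeq's start and on the minus strand, so that it reads CACGT (capitals) on the plus strand below. The core stood on either strand in 21.4% of the 35116 promoter windows of all genes, so a match is a description only:
CA9 chr9:35673898-35673927: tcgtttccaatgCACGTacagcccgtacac

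CA12 (chromosome 15, 63321378 to 63381846, minus strand) had 41 and 25 counts in the samples labelled HMGB2 siRNA (HMGB2 high) and 20 and 11 counts in those labelled scramble. These were 1.30 and 1.22 CPM against 0.908 and 0.528 CPM. The groups did not overlap, but the exact 95% Poisson intervals did, with 0.788 to 1.80 CPM in replicate 2 labelled HMGB2 siRNA and 0.555 to 1.40 CPM in scramble replicate 1. The log2 fold change of 0.81 ± 0.41 (SE) was as large as that of SLC16A1 and did not pass (edgeR adjusted p = 0.132). It moved between 0.48 and 1.26 when 1 scramble library was left out. The 3′UTR of CA12, at 4907 bases the longest of the members, carried GACAAAG in 2 places, shown 5′ to 3′ on the minus strand:
CA12 chr15:63325555-63325584: agagctagaggGACAAAGagaatgagaaga
CA12 chr15:63324158-63324187: ggctgagaccaGACAAAGcccgggaggcag

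Of the 8 members, 7 passed the filter on low counts. Of the 7 members other than SLC9A2, CA9 was not tested, 2 were called higher (SLC16A1 and SLC4A7), 0 were called lower and 4 did not pass. Over all 15161 genes tested, 16.7% were called higher and 14.1% lower. No member was lower with DESeq2 either, and at an unadjusted edgeR p under 0.05 the counts were 5 higher and 0 lower, where 20.7% of all genes tested were higher and 19.0% lower. For all 6 tested members other than SLC9A2, both libraries labelled HMGB2 siRNA stood above both labelled scramble, a pattern shared by 32.0% of all tested genes, and 31.6% showed the reverse. With upper-quartile or total-count scaling this held for 5, since SLC9A8 crossed. The median log2 fold change was 0.30 over these 6 and -0.0063 over all genes tested. Without scramble replicate 1 their log2 fold changes ran from 0.15 (SLC16A3) to 1.26 (CA12). Of the 8 members, SLC9A2, SLC16A1, SLC4A7 and CA12 carried at least 1 of the 3 words and SLC9A8, SLC16A3, SLC4A2 and CA9 carried none. However, the words were picked on these fold changes, and 26.0% of the 12164 tested genes with a matched 3′UTR carried at least 1. The first 4 genes also had the longer median 3′UTR (3436 against 685.5 bases), although that of SLC9A8 was 4306 bases.

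**Figure D3:**
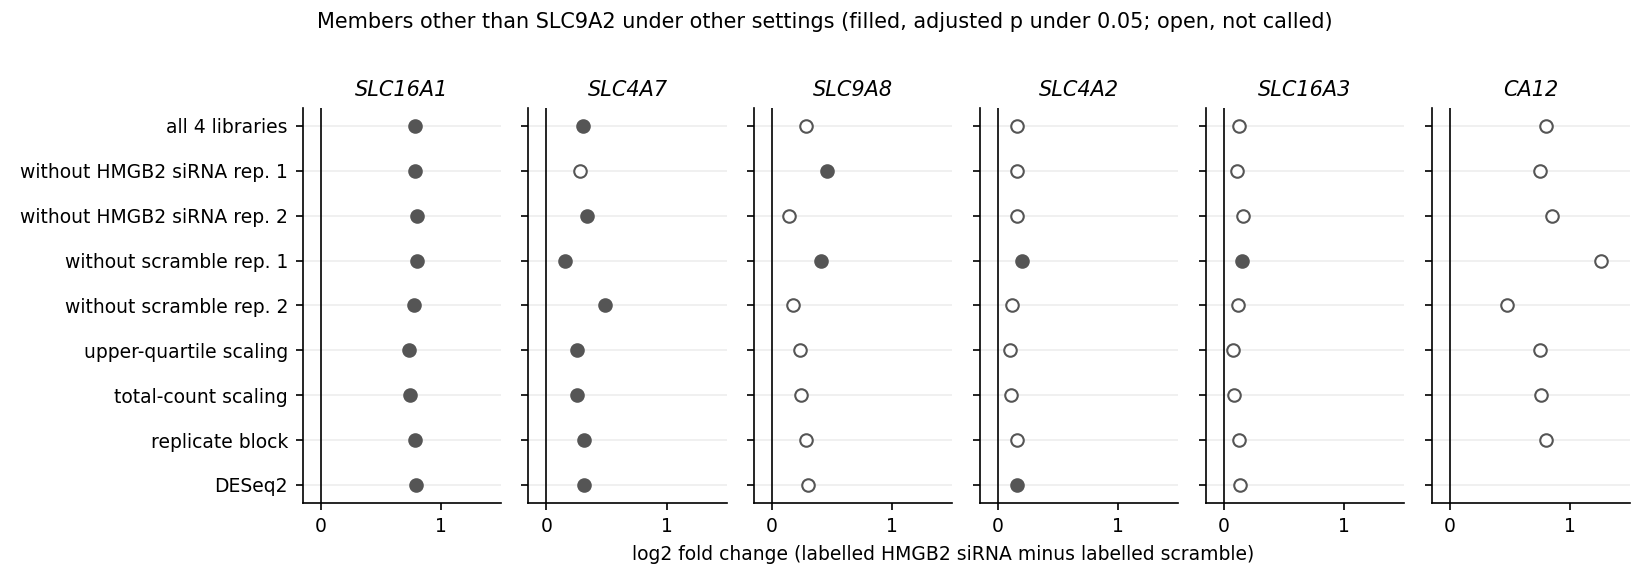
Log2 fold change (labelled HMGB2 siRNA minus labelled scramble) of the 6 tested members other than SLC9A2 with all 4 libraries, without each library in turn and under other scalings or tests, filled where the adjusted p was under 0.05. SLC16A1 is filled in every row, SLC4A7 in all but the row without replicate 1 labelled HMGB2 siRNA, and CA12 in none (DESeq2 gave it no adjusted p).

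Other genes of the same tasks were called in both directions, as were genes in general. Over all 15161 genes tested, 16.7% were called higher and 14.1% lower, and the counts of each list below stand beside these shares. No list was tested as a set. Among 16 further sodium-proton exchangers and their partner proteins, 9 were tested, 2 were higher in the samples labelled HMGB2 siRNA (HMGB2 high), 3 were lower and 4 were not called, and the median log2 fold change was -0.17. SLC9A3R2, a scaffold protein that anchors exchangers, had 124.4 ± 0.12 against 92.8 ± 12 CPM (SD, n = 2 each). SLC9A7, the exchanger of the trans-Golgi network, was lower at 94.9 ± 1.8 against 125.9 ± 8.4 CPM (SD, n = 2 each). SLC9A3 (log2 fold change -0.50) and SLC9B2 (-0.31) were also called lower, SLC9A3 with exons that overlap SLC9A3-AS1 and PP7080 and SLC9B2 with exons shared with SLC9B1. The SLC9A3 call was lost without replicate 2 labelled HMGB2 siRNA (adjusted p = 0.0742) and without scramble replicate 2 (adjusted p = 0.269). That of SLC9B2 was lost without replicate 1 or 2 labelled HMGB2 siRNA (adjusted p = 0.112 and 0.297) and without scramble replicate 2 (adjusted p = 0.0725), so that 1 lower gene remained without replicate 2 labelled HMGB2 siRNA. DESeq2 called neither SLC9A3 nor SLC9B2 (adjusted p = 0.0901 and 0.192), and the edgeR fit with no filter on low counts did not call SLC9B2 (adjusted p = 0.0806). SLC9A4, the neighbour and closest relative in position of SLC9A2, had 0 counts in all 4 libraries.

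Of 20 further monocarboxylate transporters, chaperones and lactate dehydrogenases, 11 were tested, 4 were higher in the samples labelled HMGB2 siRNA (HMGB2 high), 1 was lower and 6 were not called, and the median log2 fold change was 0.0075. Basigin (BSG), the chaperone of MCT1 and MCT4, rose with MCT1, at 548 ± 4.0 against 434 ± 45 CPM (SD, n = 2 each; edgeR adjusted p = 8.73e-05). Embigin (EMB), a relative of basigin, had a log2 fold change of 0.25. Lactate dehydrogenase A (LDHA), named here after its value was seen, was also called higher with 0.20 (adjusted p = 0.0186), a call lost without either library labelled HMGB2 siRNA (adjusted p = 0.167 and 0.214) and with upper-quartile or total-count scaling (adjusted p = 0.0794 and 0.0517). EMB lost its call without replicate 1 labelled HMGB2 siRNA (adjusted p = 0.228), which left 2 higher genes. SLC16A13 was lower, at 32.3 ± 0.66 against 44.4 ± 4.9 CPM (SD, n = 2 each). BSG overlaps exons of BSG-AS1 on the opposite strand, and LDHA has exons on an alternative sequence of the assembly.

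Of 17 further bicarbonate transporters and partners, 9 were tested, 2 were higher in the samples labelled HMGB2 siRNA (HMGB2 high), 3 were lower and 4 were not called, and the median log2 fold change was -0.22. SLC4A8, a sodium-driven chloride-bicarbonate exchanger, had 192 and 137 counts against 43 and 42. This was 6.11 and 6.68 against 1.95 and 2.02 CPM, 3.20-fold higher (edgeR adjusted p = 1.45e-08), but its exons overlap those of GALNT6, SLC4A8-AS1 and an uncharacterised gene on the opposite strand. SLC26A2, a sulfate transporter, was higher at 171 ± 0.82 against 140.0 ± 16 CPM (SD, n = 2 each). The chloride-bicarbonate exchanger SLC4A3 (AE3) went the other way than SLC4A8, with 15.8 and 18.5 against 25.8 and 31.2 CPM, a log2 fold change of -0.74 ± 0.11 (SE; adjusted p = 1.63e-07). SLC26A11 (-0.26) and AHCYL2 (-0.22) were called lower too, and both lost the call without replicate 1 labelled HMGB2 siRNA (adjusted p = 0.206 and 0.546), without replicate 2 of that label (0.203 and 0.107) and without scramble replicate 2 (0.062 and 0.0839), which left 1 lower gene without either library labelled HMGB2 siRNA. AHCYL2 lost it also with the replicate number as a block (edgeR adjusted p = 0.0565). DESeq2 called neither SLC26A11 nor AHCYL2 (adjusted p = 0.144 and 0.204). Nor did the edgeR fit with no filter on low counts (adjusted p = 0.0764 and 0.136).

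Among 13 further carbonic anhydrases, 6 were tested. In the samples labelled HMGB2 siRNA (HMGB2 high) 1 was higher, 0 were lower and 5 were not called, and the median log2 fold change was 0.32. DESeq2 and an unadjusted edgeR p under 0.05 also gave 0 lower. Over all genes tested, 16.7% were called higher and 14.1% lower, with 19.0% lower at that unadjusted p. With 6 genes tested, 0 lower therefore tells little about the family. The one that rose was CA8, a family member that lacks catalytic activity, with 104.1 and 101.3 against 44.7 and 47.8 CPM, a 2.22-fold difference (edgeR adjusted p = 2.45e-18). The catalytic CA2, named after its value was seen, had 1.44 ± 0.10 against 0.790 ± 0.17 CPM (SD, n = 2 each, edgeR adjusted p = 0.0915). It rests on 14 to 43 counts per library. The others not called had folds from 0.99 to 1.38 (edgeR adjusted p from 0.524 to 0.975).

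Of 35 genes of proton pumps, the proton channel and acid sensors, 24 were tested, 3 were higher in the samples labelled HMGB2 siRNA (HMGB2 high), 4 were lower and 17 were not called, and the median log2 fold change was 0.06. ATP6V1A, the catalytic subunit of the vacuolar proton pump, had 133.6 and 128.2 against 67.5 and 72.7 CPM and was 1.87-fold higher (edgeR adjusted p = 2.65e-15). The membrane-sector subunits ATP6V0E2 (log2 fold change 0.45) and ATP6V0E1 (0.17) were also higher. The accessory subunit ATP6AP1 was lower at 184.6 ± 4.6 against 255 ± 8.9 CPM (SD, n = 2 each; adjusted p = 6.82e-08), as were ATP6V1G1 (-0.25) and ATP6V0D1 (-0.19). Without replicate 1 labelled HMGB2 siRNA the calls of ATP6V0E1, ATP6V1G1 and ATP6V0D1 were lost (adjusted p = 0.197, 0.0605 and 0.407), and 1 gene of the list was called lower. Without replicate 2 of that label ATP6V0E1, ATP6V1G1 and ATP6V0D1 were lost (0.325, 0.173 and 0.163), which left 2 lower genes. Without scramble replicate 1 the call of ATP6V0D1 was lost (0.119) while 6 genes were higher, and without scramble replicate 2 that of ATP6V0E1 (0.239). DESeq2 called neither ATP6V0E1 nor ATP6V0D1 (adjusted p = 0.0644 and 0.121). ATP6V0E1 lost its call also with upper-quartile and total-count scaling (edgeR adjusted p = 0.15 and 0.13). ATP6V0D1 lost its call with no filter on low counts (edgeR adjusted p = 0.111). The exons of ATP6V0E2 overlap those of ATP6V0E2-AS1 on the opposite strand.

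Because CA9, CA12 and SLC16A3 respond to hypoxia-inducible factors in many cells, 22 targets and regulators of these factors were read beside them. Of these 20 were tested, 5 were higher in the samples labelled HMGB2 siRNA (HMGB2 high), 3 were lower and 12 were not called, and the median log2 fold change was -0.0042. EPAS1, which encodes HIF-2α, was lower at 132 ± 0.52 against 228 ± 5.8 CPM, and VHL, which marks the factors for degradation, was higher at 90.4 ± 2.2 against 57.3 ± 4.5 CPM (SD, n = 2 each; edgeR adjusted p = 2.77e-14 and 2.9e-10). HIF1A itself had 104.7 ± 0.27 against 101.5 ± 5.7 CPM (SD, n = 2 each; adjusted p = 0.663), and its exons overlap HIF1A-AS1 and HIF1A-AS2. P4HA2 (-0.48) and the inhibitor HIF1AN (-0.26) were lower on the log2 scale. The mitophagy receptor BNIP3L (0.38), VEGFA (0.29) and, named after their values were seen, STC2 (0.22) and BNIP3 (0.19) were higher. Calls were lost without replicate 1 labelled HMGB2 siRNA for HIF1AN, STC2 and BNIP3 (adjusted p = 0.165, 0.256 and 0.53; 3 higher genes left) and without replicate 2 of that label for VEGFA, STC2 and BNIP3 (0.0735, 0.186 and 0.0706; 2 left). They were lost without scramble replicate 1 for VEGFA and BNIP3 (0.436 and 0.0619; 3 left) and without scramble replicate 2 for STC2 (0.0778; 4 left). With total-count scaling or DESeq2 2 were higher, and with upper-quartile scaling 3.

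**Figure D4:**
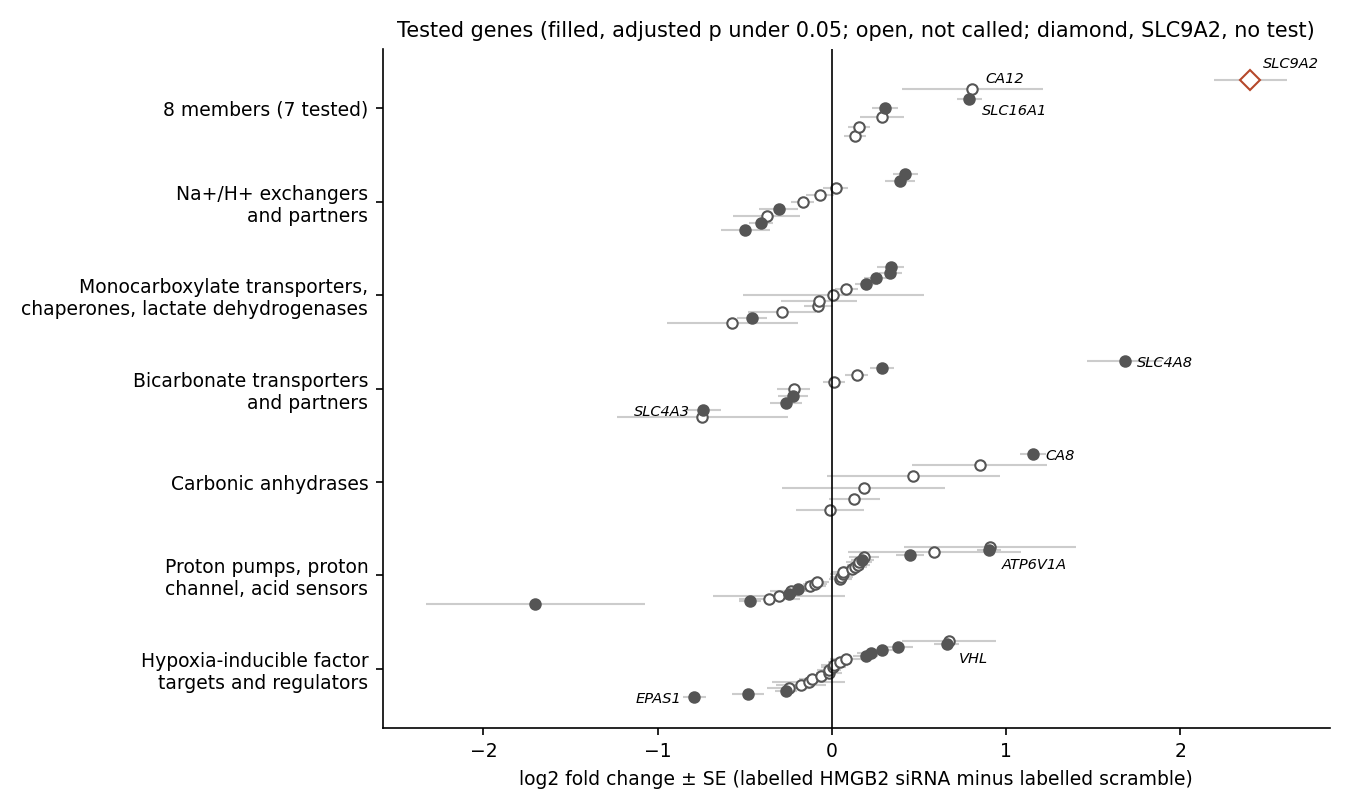
Log2 fold change ± SE (labelled HMGB2 siRNA minus labelled scramble) of the 7 tested members and of each tested gene in 6 lists of related genes, filled where the edgeR adjusted p was under 0.05 (diamond, SLC9A2, no test). The members lie right of 0, while each list but the carbonic anhydrases has called genes on both sides, led by SLC4A8 at 1.68, CA8 at 1.15 and ATP6V1A at 0.90 on the right, with EPAS1 at -0.79 and SLC4A3 at -0.74 among those on the left.

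The same 3 words were looked for in the 3′UTRs of these lists. At least 1 was present in 7 of 17 genes called higher, among them SLC4A8, CA8, ATP6V1A and EMB. It was present in 2 of 14 called lower (SLC9A7 and AHCYL2) and in 2 of 48 not called. These shares were 41.2%, 14.3% and 4.17%, where 26.0% of the 12164 tested genes with a matched 3′UTR carried at least 1. The genes not called thus lay below the share over all genes. The genes called higher also had the longer median 3′UTR, at 2364 bases against 1026 and 950 bases. BSG, SLC26A2 and VHL were called higher and carried none. As before, the words were picked on these fold changes, so the shares are a description.

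The pattern of SLC9A2 over the 4 libraries was most like that of MAT2B, CRMA, SEC23A and EYA1 among reported genes with a mean of at least 1 CPM. The root mean square difference of their centred log2 CPM values from those of SLC9A2 was 0.188, 0.212, 0.253 and 0.278 over 4 libraries. MAT2B, a regulatory subunit in methionine metabolism, had 81.2 and 80.9 against 17.7 and 21.7 CPM, and SEC23A, a vesicle coat protein, 120.3 and 118.6 against 32.5 and 33.3 CPM. This likeness was measured over 4 libraries in 2 groups, so any gene with a similar fold scores close.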

How the data were processed

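RNA was sequenced from 4 libraries, 2 per label, and the authors deposited whole-number counts of reads per gene, 54628 genes in each table. Per the submitters' processing notes, STAR, SAMtools 1.9, featureCounts (Subread 1.6.3) and DESeq2 were named with the build hg38. Whether counting used strand or reads with several matches is not given in the sources used here, and 3477 genes have exons also on alternative sequences, which can change their counts. Counts were scaled by TMM and tested as deposited with edgeR 4.0.16 in R 4.3.3 (glmQLFit and glmQLFTest, labelled HMGB2 siRNA minus labelled scramble, no covariate). The filterByExpr filter (minimum count 10, minimum total 15) left 15161 genes, and calls were made at a Benjamini-Hochberg adjusted p under 0.05 over all of them. The fit rests on 2 residual degrees of freedom, with a common biological coefficient of variation of 0.0507. The SE of an edgeR log2 fold change is its absolute value divided by the square root of the quasi-likelihood F statistic. It therefore restates the test and is no separate measure of spread. RPKM uses exon length on the primary chromosome. The scripts were tested on simulated data.

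Named genes are the members and, in each related list, up to 3 called genes per direction with the largest change among those with a mean of at least 1 CPM; SLC9A4, LDHA, CA2, HIF1A, STC2 and BNIP3 fall outside this rule and were named after their values were seen. The 5 genes like SLC9A2 were the nearest by root mean square difference. Some genes and 1 sequence window that these rules gave are not reported here, though counts over the lists include them. The members, lists and 3 sequence words were chosen with earlier results of these data known. The 3′UTRs are from GENCODE 29 on GRCh38, and promoters from RefSeq on GRCh38.p14, which matched 7 of the 8 members by symbol (not SLC16A1). Alternatives were scaling by total counts, upper quartile or RLE, no filter, a filter at a mean of 1 CPM, a replicate block, limma-voom (limma 3.58.1), DESeq2 1.42.0 and leaving out each library.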

Additional observations from a re-analysis of the deposited data

How the results depend on the processing

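Over the 6 tested members other than SLC9A2 and 12 alternative settings, 70 values could be computed. Of these, 62 kept their side of the threshold, 7 moved past it, 1 (SLC4A7) fell short of it and 0 reversed. The members called higher numbered 2 to 5 when 1 library was left out, with 5 without scramble replicate 1. Among all genes, 1481 to 2904 were called higher and 903 to 2291 lower when 1 library was left out, and DESeq2 called 1055 lower. Genes of the 6 lists called lower numbered 7 to 14 when 1 library was left out, 9 without the low-count filter and 8 with DESeq2, against 14. Higher calls made up 54.3% of all calls with TMM, 42.0% with upper-quartile scaling, 43.3% with total-count scaling and 63.5% with DESeq2. Leaving out a library leaves 1 in its group, assumed to vary like the other label. The labels do not say that equal replicate numbers pair libraries, and deviations of equally numbered libraries correlated at -0.0144 over genes; with the replicate block, 2446 genes were called higher and 2011 lower, 2 of them the same members, and AHCYL2 alone of the genes named lost its call. DESeq2 gave no adjusted p for CA12, and CA12 was not in the setting with a mean of at least 1 CPM. Counting depth limits CA9 and CA12.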

Other observations

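The neighbours of SLC9A2 on chromosome 2, looked up after its values were seen, differed less or in the other direction. MFSD9, 2511 bases away, had 27.5 ± 0.25 CPM in the samples labelled HMGB2 siRNA (HMGB2 high) and 24.5 ± 0.72 CPM in those labelled scramble (SD, n = 2 each; edgeR adjusted p = 0.188). TMEM182, 25554 bases away, was lower at 5.53 ± 0.37 against 7.55 ± 0.72 CPM (SD, n = 2 each; edgeR adjusted p = 0.0347). SLC9A4, 85578 bases away on the other side, had 0 counts in all 4 libraries.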
